A study of Schizosaccharomyces pombe with 4 samples.

Results

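The mitochondrial genome of fission yeast (Schizosaccharomyces pombe) was represented by 88 small RNA windows, all those placed on the mitochondrial contig among the 4012 windows that the authors listed as different between a strain labelled ABP1d and a wild-type strain (WT). ABP1d is the genotype the labels give, without spelling out the final letter; ABP1 is a homolog of CENP-B, a protein that binds centromeric DNA. Each strain had 2 small RNA libraries, made from untreated cells in exponential growth in rich medium, and the deposited tables hold 1 value per strain. No difference below can therefore be set against a spread between libraries, and the ranges in brackets are exact 95% binomial intervals, which reflect counting error alone. The separate lists of the most abundant regions, 309 for ABP1d and 190 for WT, held no mitochondrial region. The mitochondrial window with most reads reached 105 RPM (reads scaled to 1e6 of the strain's total) in ABP1d and the highest in WT was 55.6 RPM, below the least abundant listed region of each strain at 222 and 544 RPM.

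The mitochondrial genome of this yeast is a small circle that is transcribed on one strand into long precursors. It encodes both rRNAs of the mitochondrial ribosome, a set of tRNAs, the RNA of mitochondrial RNase P, subunits of cytochrome oxidase and ATP synthase, cytochrome b and a ribosomal protein. Many tRNA genes stand between the other genes, and the precursors are cut at them: RNase P cuts at the 5′ end of a tRNA and tRNase Z just after its 3′ end. The pieces that follow a tRNA are trimmed or degraded by nuclear-encoded mitochondrial nucleases.

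Of the 25 tRNA genes, 6 carry the values that the results turn on, and they are shown 5′ to 3′ from the RefSeq mitochondrial sequence of assembly ASM294v3 (plus strand), by the positions of that annotation. The first 3 are genes whose windows were among the most abundant, with the anticodon in capitals, so that the listed windows can be placed. Those for tRNA-Ile(CAU) lie at 17544 to 17615, for tRNA-Ala at 18059 to 18131 and for tRNA-Pro at 15663 to 15737.
trnI(cau): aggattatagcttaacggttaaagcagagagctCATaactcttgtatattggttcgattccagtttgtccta
trnA(ugc): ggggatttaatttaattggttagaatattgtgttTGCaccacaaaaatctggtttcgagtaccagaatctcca
trnP(ugg): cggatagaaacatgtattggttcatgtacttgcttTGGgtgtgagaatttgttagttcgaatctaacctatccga

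The other 3 are genes followed directly by a window that was lower in ABP1d. They are printed with the next 26 bases in capitals, which those windows overlap. They are the elongator tRNA-Met (4591 to 4691 with the added bases), tRNA-Tyr (17259 to 17370) and tRNA-His (15552 to 15650).
trnM(cau)e: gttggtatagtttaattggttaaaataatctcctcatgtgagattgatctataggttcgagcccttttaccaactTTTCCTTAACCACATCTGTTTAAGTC
trnY(gua): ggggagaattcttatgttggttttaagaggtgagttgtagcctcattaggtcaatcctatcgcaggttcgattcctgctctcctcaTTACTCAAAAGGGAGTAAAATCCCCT
trnH(gug): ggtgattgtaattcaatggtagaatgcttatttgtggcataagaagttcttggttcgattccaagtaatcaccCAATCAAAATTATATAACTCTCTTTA

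Mitochondrial small RNA was higher in ABP1d on most tRNA, rRNA, coding and intron windows, and lower on most windows between genes. Reads, recovered as RPKM times length, summed to 13386 in ABP1d against 3661 in WT over the 88 windows. The totals behind these values were 23817270 reads in ABP1d and 14466014 in WT, and all ratios below are of RPM, so a window can hold more reads in ABP1d and still be lower there. The sums are 562 RPM in ABP1d and 253 RPM in WT, a ratio of 2.22 (2.14 to 2.30). By direction, 64 windows were higher in ABP1d (72.7%) and 24 were lower. Over all 4012 listed windows, 82.9% were higher and 17.1% were lower. By type, 85% of tRNA, 80% of intron, 78.9% of coding exon, 74.2% of rRNA and 12.5% of intergenic windows were higher. Among these shares of higher windows, only the intergenic one was far from that of all windows. With 0 reads set to a floor of 3 pooled reads, 58 of 88 windows were at least 2-fold higher. Over all windows these were 3207 of 4012 (79.9%). At least 2-fold lower were 22 of 88, a larger share than the 452 of 4012 (11.3%) over all windows. By type, these were 8 of 31 rRNA, 2 of 20 tRNA, 4 of 19 coding exon, 2 of 10 intron and 6 of 8 intergenic windows. The median log2 ratio was 1.45 over mitochondrial windows and 2.09 over all windows. These directions hold for the totals as deposited. With the medians of nuclear 5S rRNA or nuclear snRNA windows set to 0, the summed ratio was 0.933 and 0.571, so the direction of the mitochondrial sum depends on the scaling.

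The windows covered 2596 of the 19433 bases of the RefSeq mitochondrial sequence (13.4%). They were 1 to 160 bases long, with a median of 25 bases, and held 10 to 2798 reads over both strains, with a median of 45. Some windows of 1 or 2 bases held about 10 reads, so the edges of a window are not the ends of an RNA. Reads were concentrated in few places: the 10 windows with most reads held 74.0% of mitochondrial reads in ABP1d and 57.1% in WT. Of these 10 windows, 7 were on tRNA genes, 2 on the large rRNA and 1 between genes, and 9 were higher in ABP1d. The only mitochondrial windows with a 20-base match in the nuclear chromosomes were those at 15662 to 15712 (tRNA-Pro) and 17584 to 17661 (tRNA-Ile and tRNA-Ser), and without them the summed ratio was 2.20.

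**Figure D1:**
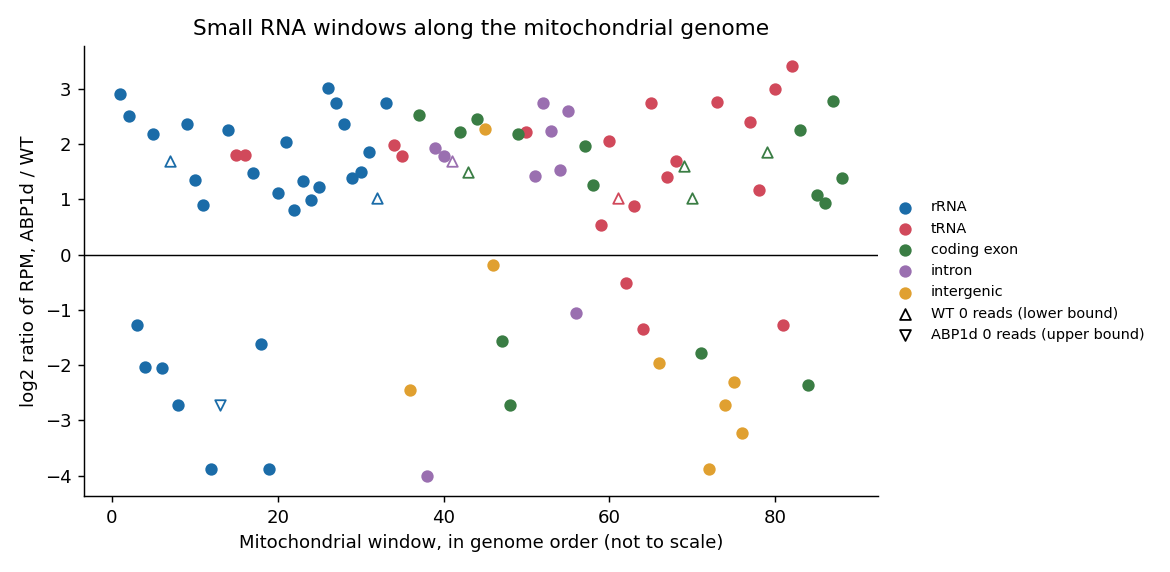
Log2 ratio of RPM, ABP1d over WT, for the 88 mitochondrial windows in the order of the genome (x axis, not to scale), coloured by annotated span. Open triangles are bounds where a strain had 0 reads, set to 3. Higher windows form long runs, for example along the small rRNA, with lower windows between them, and 7 of the 8 intergenic windows lie below 0.

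Among RNA types, tRNA genes held the largest share of reads in both strains and had the highest ratio, which was lower without 2 of their windows. Their 20 windows held 8934 reads in ABP1d against 1680 in WT, or 375 and 116 RPM, a ratio of 3.23 (3.07 to 3.40), and 17 of them were higher. Without the 2 with most reads, on tRNA-Ile(CAU) and tRNA-Ala, the ratio was 2.18 (2.05 to 2.32). Neither rRNA nor coding exons were cut in this way, so their ratios below are not comparable with that value. The 2 rRNA windows with most reads also had high ratios, 7.53 and 5.15. On rRNA, 31 windows held 2023 reads in ABP1d against 487 in WT, a ratio of 2.52 (2.28 to 2.79), with 23 windows higher and 8 lower. On coding exons, 19 windows held 807 reads in ABP1d against 206 in WT, a ratio of 2.38 (2.04 to 2.79), with 15 higher and 4 lower. Introns had 10 windows with 341 reads in ABP1d against 148 in WT, a ratio of 1.40 (1.15 to 1.71), with 8 higher and 2 lower. Between genes, 8 windows held 1281 reads in ABP1d against 1140 in WT, a 1.47-fold lower value in ABP1d (1.35 to 1.59), with 1 window higher and 7 lower. Per length, the intergenic windows reached 368 RPKM in ABP1d and 540 RPKM in WT, and without the single window before cox3 only 42.4 RPKM in ABP1d and 209 RPKM in WT. The tRNA windows had 396 RPKM in ABP1d and 123 RPKM in WT. No window was assigned to the RNase P RNA (rnpB).

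The make-up of mitochondrial reads within a strain does not depend on its total. tRNA windows held 66.7% of mitochondrial reads in ABP1d (65.9 to 67.5) and 45.9% in WT (44.3 to 47.5). Without the 2 tRNA windows with most reads, the other tRNA windows held 33.3% in ABP1d (32.5 to 34.1) and 33.9% in WT (32.4 to 35.5), with overlapping intervals. These shares are of all mitochondrial reads, those 2 windows included. Those 2 windows, picked by their reads, held 33.4% of mitochondrial reads in ABP1d and 12.0% in WT. Keeping them in the base lowers every other share more in ABP1d. The near-equal shares of the other tRNA windows therefore do not place the whole difference in those 2 windows. Intergenic windows held 9.57% in ABP1d (9.08 to 10.1) and 31.1% in WT (29.6 to 32.7). Without the window before cox3 the intergenic shares were 0.837% in ABP1d and 9.15% in WT. Introns held 2.55% in ABP1d (2.29 to 2.83) and 4.04% in WT (3.43 to 4.73), and most of these WT reads lay in the 2 lower intron windows. For rRNA the shares were 15.1% in ABP1d (14.5 to 15.7) and 13.3% in WT (12.2 to 14.4). For coding exons they were 6.03% in ABP1d (5.63 to 6.45) and 5.63% in WT (4.90 to 6.42), with overlapping intervals. Only windows that the authors listed as different enter these shares.

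**Figure D2:**
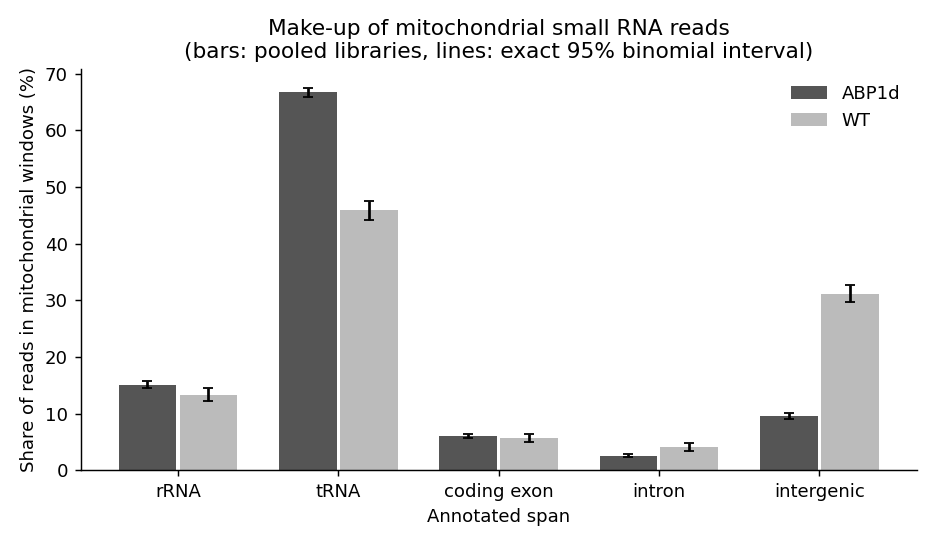
Share of mitochondrial reads (y axis, percent) in each annotated span, with ABP1d left of WT. Bars are pooled libraries and lines are exact 95% binomial intervals. The tRNA share was 66.7% in ABP1d and 45.9% in WT, and the intergenic share was 9.57% in ABP1d and 31.1% in WT, or 0.837% and 9.15% without the window before cox3.

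The 2 most abundant tRNA windows lay on the 5′ part of their genes. Only listed windows have values, so reads on other bases of these genes are not known. The window at 17534 to 17568 began at the last base of the upstream tRNA-Arg(UCG), ran to base 25 of tRNA-Ile(CAU) and ended before the anticodon at bases 34 to 36. It held 2509 reads in ABP1d against 289 in WT (3010 and 571 RPKM), a ratio of 5.27 (4.67 to 5.98). The window at 18058 to 18083 covered tRNA-Ala up to its base 25, also short of the anticodon at bases 35 to 37. It held 1967 reads in ABP1d against 149 in WT (3176 and 396 RPKM), a ratio of 8.02 (6.79 to 9.54). Both windows stood far above the other mitochondrial windows per length in ABP1d, where the next, just before cox3, had 1402 RPKM.

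The next windows along these 2 genes had lower ratios, and no listed window lay on the anticodon of either gene. On tRNA-Ile(CAU), the window from base 41 onward (17584 to 17661), which reaches into tRNA-Ser(UGA), held 496 reads in ABP1d against 133 in WT, a ratio of 2.27 (1.87 to 2.76). On tRNA-Ala, the window from base 44 onward (18102 to 18157) also covered part of rnpB, which begins at 18132. That window held 32 reads in ABP1d against 47 in WT, a 2.42-fold lower value in ABP1d (1.51 to 3.92). Summed over both windows, tRNA-Ala had 83.9 RPM in ABP1d and 13.5 RPM in WT, a ratio of 6.19 (5.35 to 7.21) that rests on the 5′ window.

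A run of tRNA genes between cob and atp6 held the longest window. At 14269 to 14428 it spanned part of tRNA-Asp, all of tRNA-Gly and part of tRNA-Leu(UAA), with 1304 reads in ABP1d against 189 in WT, a ratio of 4.19 (3.60 to 4.91). Just upstream, the window on tRNA-Phe and the start of tRNA-Asp (14203 to 14260) held 544 reads in ABP1d against 228 in WT, a ratio of 1.45 (1.24 to 1.70). Downstream in the same run, the window at 14535 to 14616 was lower, with 242 reads in ABP1d against 209 in WT, a 1.42-fold difference (1.18 to 1.72). It covered the end of tRNA-Trp, the space after that gene and the start of tRNA-Leu(UAG). A window of only 1 base on tRNA-Trp, which reached no other tRNA, was higher, with 10 reads in ABP1d against 0 in WT. So was one on tRNA-Leu(UAG), with 70 in ABP1d against 23 in WT, a ratio of 1.85 (1.14 to 3.10). Windows of the run thus differed in direction.

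Other tRNA genes were mostly higher. tRNA-Pro (15662 to 15712) held 599 reads in ABP1d against 137 in WT, a ratio of 2.66 (2.20 to 3.22), and its window covered bases up to 50, beyond the anticodon. tRNA-Lys (2846 to 2922) held 386 in ABP1d against 67 in WT, a ratio of 3.50 (2.69 to 4.61). tRNA-Glu had the highest ratio among windows of at least 20 reads, but with few reads: 35 in ABP1d against 2 in WT, a ratio of 10.6 (2.73 to 91.2).

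The exception among windows that start at a tRNA's 5′ end was tRNA-His. Its 5′ window (15551 to 15584) held 65 reads in ABP1d against 100 in WT, a 2.53-fold lower value in ABP1d (1.84 to 3.52). The other 4 windows starting within 2 bases of a tRNA's 5′ end, on the elongator tRNA-Met, tRNA-Arg(UCU), tRNA-Pro and tRNA-Ala, were higher, by 2.66-fold to 8.02-fold. Windows touched 20 of the 25 tRNA genes. With each window given to the 1 gene that holds more of it than any other, 15 genes had a sum, of which 13 were higher and 2 lower (tRNA-His, and tRNA-Trp at a ratio of 0.732). The tRNA-Trp sum rests on the window shared with tRNA-Leu(UAG).

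Windows placed directly after a tRNA gene went both ways, according to whether they reached another tRNA. These sets were formed after their values were seen. In all, 6 windows began within 3 bases of the last base of a tRNA. The 3 that extended into the next tRNA, after tRNA-Ser(GCU), tRNA-Pro and tRNA-Arg(UCG), were higher and together held 2885 reads in ABP1d against 357 in WT. The 3 that reached no other tRNA, after the elongator tRNA-Met, tRNA-Tyr and tRNA-His, were lower.

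After the elongator tRNA-Met, the window at 4667 to 4692 held 57 reads in ABP1d against 190 in WT, a 5.49-fold lower value in ABP1d (4.06 to 7.51). On the gene itself, 2 windows held 59 and 51 reads in ABP1d against 9 in WT each, ratios of 3.98 and 3.44. After tRNA-Tyr, a gene to which no window was assigned, 17344 to 17370 held 17 reads in ABP1d against 97 in WT, a 9.39-fold lower value in ABP1d (5.58 to 16.8). After tRNA-His, 15625 to 15642 held 8 reads in ABP1d against 19 in WT, 3.91-fold lower in ABP1d (1.63 to 10.3). Together these 3 windows had 82 reads in ABP1d against 306 in WT, 6.14-fold lower in ABP1d (4.80 to 7.94). They overlap the bases printed in capitals above.

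**Figure D3:**
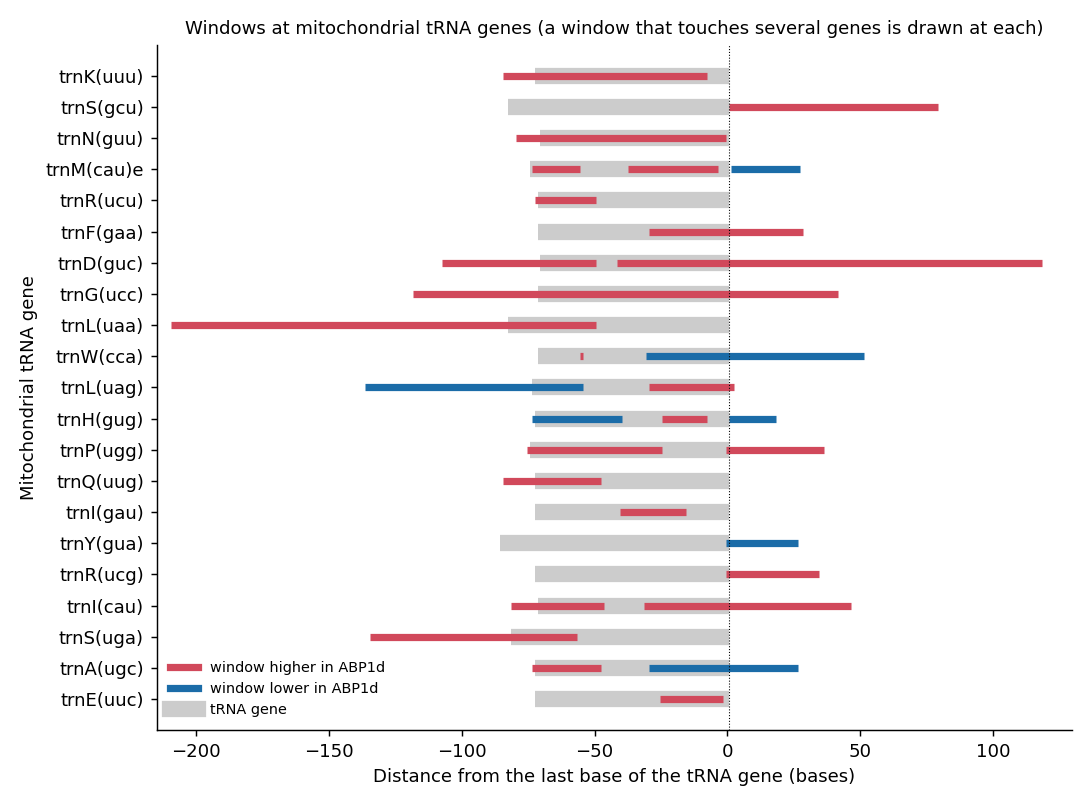
Windows at mitochondrial tRNA genes, drawn by distance in bases from the last base of the gene (x axis), 1 line per gene in genome order. Grey bars are genes, red windows were higher in ABP1d and blue windows lower. Blue windows follow the genes of the elongator tRNA-Met, tRNA-Tyr and tRNA-His, and red windows follow those of tRNA-Ser(GCU), tRNA-Pro and tRNA-Arg(UCG). On the genes themselves most windows are red. A blue window lies at the 5′ end of tRNA-His. The only window at tRNA-Tyr begins at the last base of that gene, and none lies on the rest of it.

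The other intergenic windows held either many reads or very few. The window at 8922 to 8956, which ends just before the coding sequence of cox3, a subunit of cytochrome oxidase, was the most abundant one outside tRNA genes. It held 1169 reads in ABP1d against 805 in WT (1402 and 1590 RPKM), a 1.13-fold lower value in ABP1d (1.04 to 1.24). Without it, the intergenic windows were 4.92-fold lower in ABP1d (3.96 to 6.16). Upstream in the same space, after cox1, 8835 to 8859 was the only higher intergenic window, with 24 reads in ABP1d against 3 in WT, a ratio of 4.86 (1.48 to 25.2). The remaining 3, of 1 to 7 bases, had 1 to 3 reads in ABP1d and 8 or 9 in WT.

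On the large rRNA (rnl, 1 to 2823), 8 windows were higher and 6 lower. Among windows of at least 20 reads, the highest ratio was toward the 5′ end, at 261 to 288, with 471 reads in ABP1d against 38 in WT, a ratio of 7.53 (5.40 to 10.8). Another at 1660 to 1748 held 458 in ABP1d against 54 in WT, a ratio of 5.15 (3.88 to 6.96). Between them, 4 windows were lower, of which 1068 to 1124 had the most reads, with 37 in ABP1d against 93 in WT, 4.14-fold lower in ABP1d (2.80 to 6.23). Summed, the windows of rnl had 61.4 RPM in ABP1d and 23.0 RPM in WT, a ratio of 2.67 (2.37 to 3.02).

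On the small rRNA (rns, 3132 to 4552), 15 windows were higher and 2 lower, with fewer reads. The sum was 561 reads in ABP1d against 155 in WT, a ratio of 2.20 (1.84 to 2.64). The highest ratio of a window with at least 20 reads was at 3906 to 3926, with 40 reads in ABP1d against 3 in WT, 8.10 (2.58 to 40.9). The lower windows, at 3284 to 3307 and 3310 to 3311, lay next to each other and held 14 and 1 reads in ABP1d and 26 and 9 in WT.

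Coding genes for the respiratory chain carried few reads. cox2, a subunit of cytochrome oxidase, had 6 windows and 483 reads in ABP1d against 112 in WT, a ratio of 2.62 (2.13 to 3.25). Of these, 269 reads in ABP1d and 34 in WT came from the window at 18879 to 18913, at a ratio of 4.81 (3.36 to 7.08). Only 2 bases further, the window at 18916 to 18936 held 9 reads in ABP1d against 28 in WT, 5.12-fold lower in ABP1d (2.35 to 12.3). Further toward the 3′ end, 19134 to 19152 held 34 in ABP1d against 3 in WT, a ratio of 6.88 (2.16 to 35.0).

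Exons of cox1, the catalytic subunit of cytochrome oxidase, held 93 reads in ABP1d against 9 in WT over 4 windows, a ratio of 6.28 (3.17 to 14.2). Exons of cob, cytochrome b, held 133 in ABP1d against 28 in WT, a ratio of 2.89 (1.91 to 4.51). For cox3 the sums were 42 reads in ABP1d against 30 in WT, and for rps3, a protein of the mitochondrial ribosome, 38 in ABP1d against 27 in WT. Their ratios of 0.850 (0.520 to 1.41) and 0.855 (0.508 to 1.46) had intervals on both sides of 1. A single window on atp9, a subunit of ATP synthase, held 18 reads in ABP1d against 0 in WT, which is at least 3.64-fold higher with WT set to its floor of 3 reads, while the lower limit of the exact interval was 2.67. No window lay on atp6 or atp8, the other ATP synthase genes of this genome.

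Introns followed their own pattern within cox1. Its first intron held the lowest ratio among windows of at least 20 reads, at 5834 to 5859, with 4 reads in ABP1d against 39 in WT, 16.1-fold lower in ABP1d (5.79 to 61.8). A second window of that intron, 6045 to 6066, held 25 in ABP1d against 4 in WT, a ratio of 3.80 (1.31 to 15.01). The second intron of cox1 held 33 reads in ABP1d against 3 in WT, 6.68-fold higher (2.10 to 34.05). In the group II intron of cob, 5 of 6 windows were higher. The lower one, at 13295 to 13349 toward the 3′ end of the intron, held 50 reads in ABP1d against 63 in WT, 2.07-fold lower in ABP1d (1.41 to 3.07).

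Some neighbouring windows differed in direction within a few bases. Of 12 pairs of neighbouring windows at most 10 bases apart, 5 went opposite ways: within rnl, rns and cox2, and at the 3′ ends of the elongator tRNA-Met and tRNA-His. In each of these pairs the upstream window was the higher one, but some held few reads. At tRNA-His the upstream window had 11 reads in ABP1d against 1 in WT, with an interval of 0.971 to 288. The downstream window there had 8 in ABP1d against 19 in WT. In the rnl pair the lower window had 2 bases, with 1 read in ABP1d against 9 in WT. With 64 mitochondrial windows higher and 24 lower, some opposite pairs are to be met in any pairing. Such pairs were not counted over all listed windows, so whether 5 of 12 is unusual was not tested. The order of the 2 ratios within a pair does not depend on the totals of the strains. A read can overlap neighbouring windows, and the sources used here do not say how the authors counted it.

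**Figure D4:**
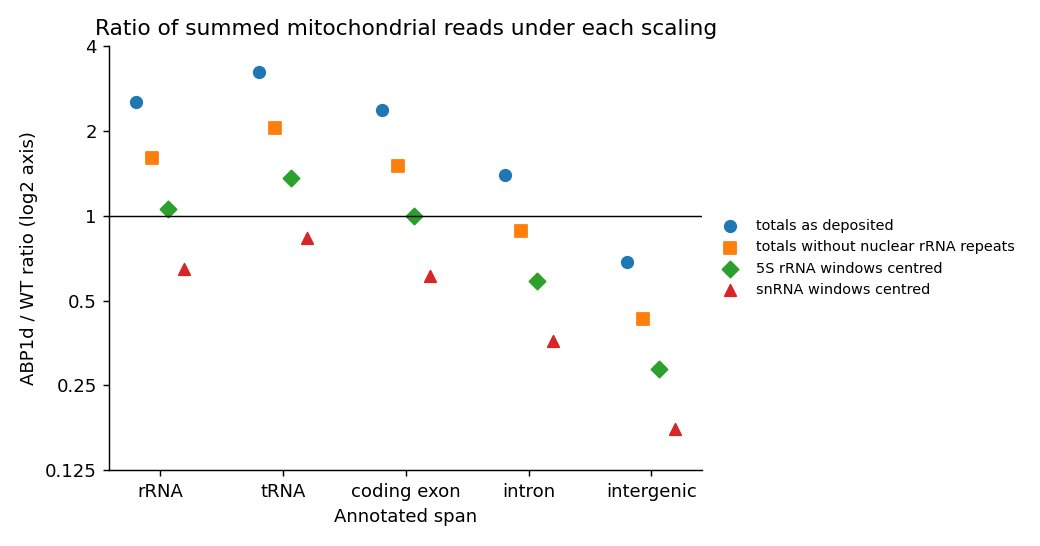
Ratio of summed reads, ABP1d over WT (log2 axis), for each annotated span under the totals as deposited and 3 other scalings. Each scaling multiplies all ratios by 1 factor below 1, so the order of the spans is fixed by construction and only the position relative to 1 changes. The tRNA ratio is 3.23 with the totals as deposited and 0.831 with snRNA centring.

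The nuclear genome encodes most proteins of the respiratory chain and of mitochondrial RNA metabolism. None of 16 listed genes for mitochondrial RNA synthesis and decay, such as the mitochondrial RNA polymerase rpo41, had a window; the symbol par1 of that list belongs to another gene in the annotation. Of 36 listed nuclear genes for the respiratory chain and ATP synthase, 35 were found by symbol and 5 had a window, all higher in ABP1d. Over all 5113 nuclear protein-coding genes, 15.5% had a window, and 92.8% of the windows on them were higher. The 5 genes were qcr8, with 41 reads in ABP1d against 2 in WT, cox9, with 44 in ABP1d against 9 in WT, atp2, with 26 in ABP1d against 3 in WT, and ndi1 and qcr6, with 18 and 14 reads in ABP1d against 0 in WT each. The windows were 15 to 25 bases long.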

How the data were processed

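Small RNA was sequenced from 2 ABP1d and 2 WT libraries. Per the submitters' processing notes, Bowtie 0.12.5 was used; the sources used here give neither the build, the treatment of multiple matches, the normalization total nor the test. The deposited RPKM values are pooled over the libraries of a strain, and the deposited p-values of the comparison list only windows with p up to 0.0494. Columns were assigned by joining coordinates with the strain lists (7 of 7 shared regions for ABP1d, 124 of 124 for WT). No value column was left unmapped.

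RPKM times length gave whole reads in 100% of windows (tolerance 1e-06 of the count), against totals of 23817270 (ABP1d) and 14466014 (WT). No source says what these totals count, and the 2 libraries of a strain cannot be separated. In the totals, nuclear rRNA repeats make up 47.8% (ABP1d) and 67.0% (WT). Ratios of RPM have exact 95% binomial intervals conditional on both strains' reads; against 0 reads the floor was 3 pooled reads. PCR reads are not independent molecules.

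The RefSeq mitochondrial sequence of ASM294v3 was used for annotation; the files name no build. Starts were taken as 0-based, and positions appear here 1-based. At 4 mitochondrial tRNA genes windows began 1 base before the gene and at 1 gene 1 base inside it, while 75 of 107 edges at nuclear tRNA 5′ ends were displaced by 1 base in the direction of higher coordinates, so positions are uncertain by about 2 bases. Moving all windows by up to 2 bases changed the type of none, and by 3 bases of 1. Each window took the type covering most of its bases. The files give no strand. A count test had been planned for values per library and was not made on pooled values.

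Named are the sums per mitochondrial gene, listed nuclear genes with a window, and the windows that are the 10 with most reads, the 5 highest and 5 lowest ratios among those of at least 20 reads, and those of at least 100 bases; any other window was picked with its values known. The members and lists were chosen with earlier results of these data known. Recovery of reads was tested on simulated data: over 4012 windows, 100% of the reads came back and the ratio put in lay inside 96.6% of intervals. The simulation kept every window, while the authors listed only windows with p up to 0.0494. Its 96.6% therefore does not apply to intervals of windows selected in that way. Python 3.11.15, NumPy 2.4.6, SciPy 1.17.1 and Matplotlib 3.10.9 were used. The alternatives were other scalings, equal windows counted once, at least 20 reads, a deposited p under 0.001, assignment by at least 50% of a window and stricter list overlap.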

Additional observations from a re-analysis of the deposited data

How the results depend on the processing

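No paired analysis was possible because the files hold 1 value per strain, and leaving out each library could not be run for the same reason. The direction of the mitochondrial sum rests on the scaling. The totals without the nuclear rRNA repeats multiplied every ratio by 0.632, centring on 37 nuclear 5S rRNA windows by 0.420 and centring on 15 nuclear snRNA windows by 0.257; the snRNA windows made up 0.0062% of all reads in ABP1d and 0.0023% in WT. In that order of scalings, the summed ratio of 2.22 became 1.40, 0.933 and 0.571, that of rRNA 1.60, 1.06 and 0.649, of tRNA 2.04, 1.36 and 0.831, of coding exons 1.504, 0.99974 and 0.612, of introns 0.885, 0.588 and 0.360, and of intergenic windows 0.432, 0.287 and 0.176. As alternatives chosen after seeing the data, the intergenic ratio was 0.203 without the window before cox3, and the tRNA ratio was 2.18 without its 2 windows with most reads. Higher windows numbered 37 of 88 with snRNA centring, including the 8 with 0 WT reads, which no scaling can turn. Among the 46 windows with a deposited p under 0.001, 34 were higher and the summed ratio was 2.74. Of 26 genes and introns with a window, the totals without rRNA repeats reversed trnF(gaa) (0.916). The 5S centring reversed rns (0.924), the cob intron (0.698), trnF(gaa) (0.609) and trnL(uag) (0.777). The snRNA centring reversed rnl (0.688), rns (0.566), trnK(uuu) (0.900), trnN(guu) (0.897), trnM(cau)e (0.955), cob (0.742), its intron (0.427), trnF(gaa) (0.373), trnL(uag) (0.476), trnP(ugg) (0.683), trnQ(uug) (0.836) and cox2 (0.674). For atp9, with 0 WT reads, the values are lower bounds. The other alternatives changed no direction of a sum or type and moved none past the limits of its counting interval, and the strain lists held 0 mitochondrial regions under each. Which scaling is right was not tested.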

Other observations

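The median G+C content was 29.0% over the 24 lower windows and 37.4% over the 64 higher windows, while the mitochondrial genome has 30.1%. The 13 windows under 10 bases, of which 5 were higher and 8 lower, enter these medians. Among windows of at least 20 reads the medians were 32.0% over 16 lower and 37.2% over 51 higher windows. No test of this was made. Nuclear windows that touched a tRNA gene had 1 direction: ABP1d exceeded WT in 177 of 177 (median log2 ratio 1.84). Of 21 mitochondrial windows that touched a tRNA gene, 17 were higher and 4 lower. With windows assigned by most of their bases, 17 of 20 mitochondrial tRNA windows were higher (median 1.79).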
